A study of Mus musculus with 16 samples.

Results

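Expression of 10 genes of the pathway that limits muscle growth was followed in the skeletal muscle and cortical bone of aged mice given BAY2416964 (BAY), an antagonist of the aryl hydrocarbon receptor (AhR), or vehicle (VEH). The genes were taken by symbol. They are Mstn and Gdf11, which encode ligands, Fst and Fstl3, which encode secreted antagonists, Acvr2a, Acvr2b, Acvr1b and Tgfbr1, which encode receptors, and Smad3 and Smad7, which encode intracellular SMAD proteins. All 10 were in both tables, among 21011 genes in skeletal muscle and 38933 genes in cortical bone. Every mouse was a female of the C57BL/6 strain, 18 months of age when dosing began, with no transgene or other genetic change named. Oral gavage of BAY at 30 mg/kg body mass was repeated 5 days a week over 8 weeks, and VEH was the same mix of ethanol, Solutol and water without the compound. RNA was sequenced from tibialis anterior muscle and from the shafts of long bones that had been digested with collagenase after their marrow cells were isolated, with 4 VEH and 4 BAY libraries per tissue and 16 in all. The sources used here do not say whether the bone and muscle libraries came from the same mice. Both tissues are mixtures of cells, so fewer cells of a type and less RNA per cell cannot be told apart.

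Myostatin, the product of Mstn, is a member of the TGF-beta family that skeletal muscle fibers secrete and that restrains their growth. Myostatin, GDF11 and the activins bind a type II receptor, ActRIIA or ActRIIB (encoded by Acvr2a and Acvr2b), which then engages a type I receptor, ALK4 or ALK5 (encoded by Acvr1b and Tgfbr1). The type I receptor phosphorylates SMAD2 and SMAD3, which move to the nucleus with SMAD4. Follistatin (Fst) and follistatin-like 3 (Fstl3) bind the ligands outside the cell and keep them from the receptors, and SMAD7 is an inhibitory SMAD whose gene is itself a target of TGF-beta family signaling. In bone, activins and their receptors act on cells that build and resorb matrix.

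Values are CPM, read counts scaled to the same total in every library, obtained by undoing the log2 and the offset of the deposited values. Reads counted on genes, recovered from the steps between low values, came to 6131904 to 9262260 per muscle library and to 930311 to 6951845 per bone library. A level of 3 reads therefore lay between 0.324 and 0.489 CPM in muscle and between 0.432 and 3.22 CPM in bone, which covers counting error only. The tissues were normalized separately, so their levels stand side by side without a test. Fold changes are differences in deposited log2 values, BAY minus VEH, from limma fitted on all genes of a tissue, with P values adjusted over all of them by the Benjamini-Hochberg method. Exact permutation tests of single genes were two-sided and cannot give less than 0.0286 with 4 against 4 libraries. One library stood apart in muscle, VEH replicate 3, whose column name carries the word replacement. The CPM of 7 adipocyte markers summed to 328 in it and to 38.6 to 56.3 in the other 7 muscle libraries, and those of 7 tendon and fibroblast markers to 246 against 49.4 to 98.9. In bone, the library of VEH replicate 1 had the most reads counted on genes. The libraries of BAY replicates 1 and 2 held many muscle transcripts, as described with the bone values.

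The sequence around the transcription start was examined for 3 of the genes that differed in muscle, because BAY blocks AhR, whose complex with ARNT binds DNA at a core of 5 bases. RefSeq (GRCm38.p6) gave windows of 300 bases, from 250 before to 50 after the start, for 8 of the 10 genes, and neither Fst nor Smad7 had one. The core was searched as GCGTG and as CACGC, its reverse complement. It is shown in capitals below, for Mstn at chr1:53061390-53061689, Acvr2a at chr2:48813859-48814158 and Tgfbr1 at chr4:47352972-47353271, all on the plus strand and written 5′ to 3′.
Mstn: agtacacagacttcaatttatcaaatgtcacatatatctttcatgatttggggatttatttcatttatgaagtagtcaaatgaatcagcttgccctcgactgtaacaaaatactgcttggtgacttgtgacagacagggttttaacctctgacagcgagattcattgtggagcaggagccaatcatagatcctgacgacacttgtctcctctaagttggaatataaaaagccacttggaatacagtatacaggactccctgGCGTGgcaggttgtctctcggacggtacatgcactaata
Acvr2a: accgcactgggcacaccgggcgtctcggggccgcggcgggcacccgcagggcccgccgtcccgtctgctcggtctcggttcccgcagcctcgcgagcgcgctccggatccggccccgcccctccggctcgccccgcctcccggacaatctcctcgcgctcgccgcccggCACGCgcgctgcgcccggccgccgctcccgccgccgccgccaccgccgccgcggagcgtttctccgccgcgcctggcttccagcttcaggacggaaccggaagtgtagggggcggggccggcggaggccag
Tgfbr1: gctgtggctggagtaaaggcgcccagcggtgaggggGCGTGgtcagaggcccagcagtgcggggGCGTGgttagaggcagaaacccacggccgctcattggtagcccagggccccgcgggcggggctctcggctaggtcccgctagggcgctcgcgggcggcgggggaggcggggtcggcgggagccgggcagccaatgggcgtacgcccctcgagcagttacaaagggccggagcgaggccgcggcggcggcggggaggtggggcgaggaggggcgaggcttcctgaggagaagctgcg

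The Mstn window held 1 match, at base 262, past the start site. Acvr2a also held 1, at base 170, and Tgfbr1 held 2, at bases 37 and 65. Windows of 6 of the 8 genes held the core, with Acvr1b, Acvr2b and Smad3 beside those shown, whereas the windows of Gdf11 and Fstl3 did not. Across all genes with a window, 35.2% held it. The 8-base palindrome GTCTAGAC, the original SMAD box, was in none of the 8 genes and in 0.248% of all genes. The E-box CANNTG, which reads the same on both strands, binds myogenic factors and can overlap the other letters, was in 5 of 8 genes and in 75.0% of all genes. It occurred 4 times in the Mstn window, where GC made up 41.3% of the bases, the lowest share of the 8 genes. The windows of the other 7 genes ranged from 67.7% to 80.7% GC, with the exception of a second Tgfbr1 window at 52.0%. A match is only an occurrence of these letters, and the shares of all genes were not matched for GC content.

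In skeletal muscle, Mstn was lower and Smad7 was higher in every BAY-treated mouse than in any VEH-treated mouse. Acvr2a and Tgfbr1, a type II and a type I receptor, were also lower by limma, with values that overlapped between the groups. These 4 of the 10 genes passed an unadjusted P value of 0.05, as did 9.79% of all muscle genes and 13.0% of those averaging 1 CPM or more. Of the 10 genes, 1 was higher and 3 were lower, against 6.71% and 3.07% of all genes. None of the 4 changed by 2-fold or more, and 2.43% of all genes passed both that P value and 2-fold. With limma, 0 of the 10 and 0.00% of all genes passed an adjusted P value of 0.05, the smallest over the table being 0.184, while 2056 genes passed 0.05 unadjusted. Over the 9 other settings, 0 to 40 genes of the table passed an adjusted 0.05, with 25 for voom and 40 without a trend. In 9 other settings of the analysis, among them voom on the recovered reads, the adjusted P values of the 10 genes were 0.214 or higher. The groups did not overlap for 2 of the 10 genes, against 5.73% of all genes. For 1 of these BAY was lower, as for 1.53% of all genes. The median log2 fold change was 0.13 for the 10 genes and 0.06 for all genes.

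**Figure D1:**
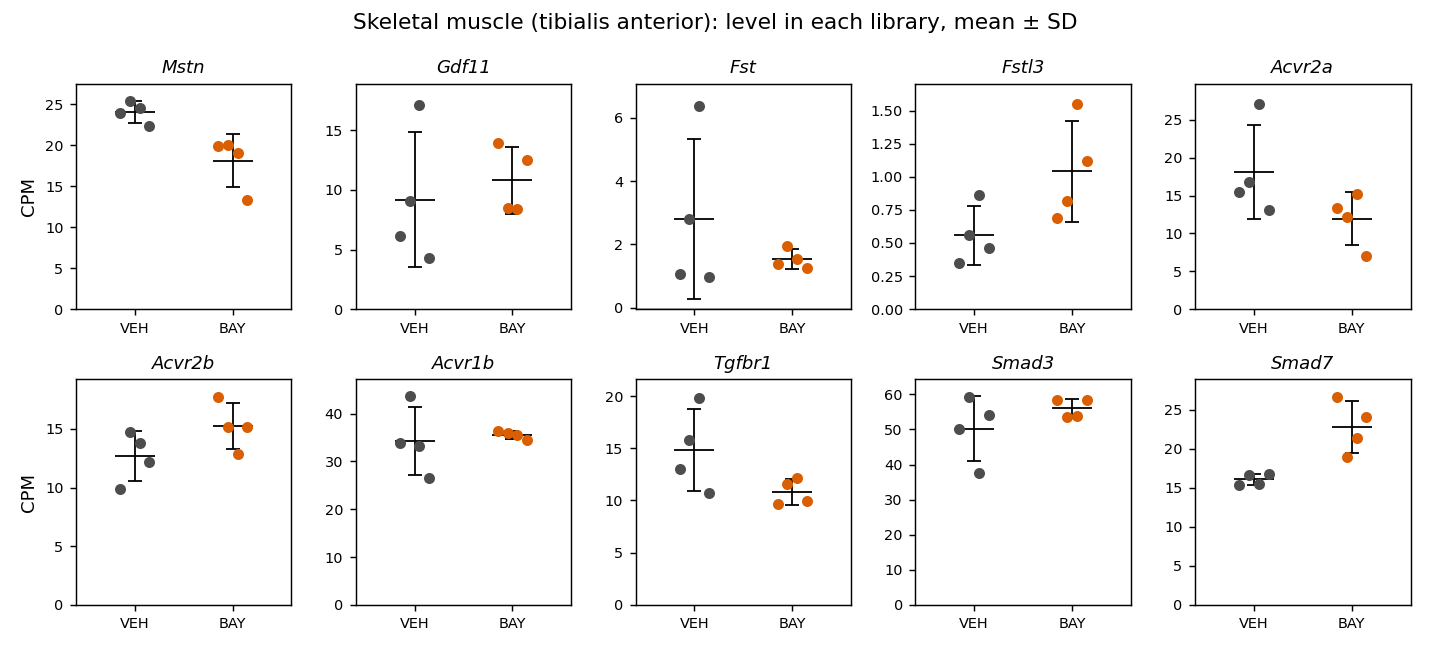
CPM of each of the 10 genes in the 4 VEH (grey) and 4 BAY (orange) skeletal muscle libraries, with the mean and SD of each group as bars and each axis starting at or just below 0. The Mstn points lie at 22.3 to 25.4 CPM in VEH and 13.3 to 20.1 CPM in BAY, the Smad7 points separate the other way, and the groups of the other 8 genes overlap.

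Mstn (ENSMUSG00000026100, mm39 chromosome 1, 53100799 to 53107238, 3 exons) was measured at 24.0, 25.4, 24.6 and 22.3 CPM in VEH replicates 1 to 4. In BAY replicates 1 to 4 it was measured at 20.0, 20.1, 19.1 and 13.3 CPM. All 4 BAY libraries lay below the lowest VEH library, and BAY replicate 4 lay well below the rest. The group means were 24.1 ± 1.31 CPM in VEH and 18.1 ± 3.22 CPM in BAY (SD, n = 4), from 95 to 228 reads per library. This gave a log2 fold change of −0.43 ± 0.15 (SE; unadjusted P = 0.0138, adjusted P = 0.395 with limma; exact permutation P = 0.0286). Without BAY replicate 4 it was −0.29 (unadjusted P = 0.0343, adjusted P = 0.578). The unadjusted P value stayed under 0.05 in all 9 other settings and with each of the 8 libraries left out in turn.

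The lower Mstn level was set against the fiber content of the libraries, since fibers are its main source in muscle. The CPM of 12 skeletal muscle fiber markers, among them Ttn, Myh4, Acta1 and Ckm, summed to 251666 to 361589 in VEH and to 302132 to 370993 in BAY, and 0 of the 12 passed an unadjusted P value of 0.05. As a share of this sum, Mstn came to 0.00702% to 0.00953% in VEH and to 0.00359% to 0.00664% in BAY. The groups did not overlap on that scale either. Ttn alone, at 131947 to 211632 CPM in VEH, made up much of the sum. Across all 8 libraries, among 5281 protein-coding genes averaging 10 CPM or more, the genes most like Mstn by Pearson correlation were Hnrnph1 (r = 0.987), Rab7 (r = 0.980) and Fgf2 (r = 0.976). This is a description over 8 libraries that include both treatments, and BAY replicate 4 was also the lowest library for these 3 genes.

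Gdf11, the closest relative of Mstn among the ligands, was measured at 6.17, 9.06, 17.2 and 4.29 CPM in VEH and at 13.9, 8.48, 8.39 and 12.5 CPM in BAY. The highest and the lowest values both belonged to VEH libraries. The log2 fold change of 0.40 ± 0.34 (SE; adjusted P = 0.712 with limma; exact permutation P = 0.486) was smaller than the spread between mice. Without VEH replicate 3 it was 0.76 (unadjusted P = 0.0155, adjusted P = 0.399), and without VEH replicate 4 it was 0.095 (unadjusted P = 0.766, adjusted P = 0.935). Some 10.6% of the exon bases of Gdf11 lie opposite exons of Sarnp, which was measured at 0.902 CPM.

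The antagonists were low in muscle. Fst was measured at 1.05, 2.79, 6.37 and 0.954 CPM in VEH and at 1.38, 1.96, 1.55 and 1.26 CPM in BAY, from 8 to 59 reads. Its highest value was that of VEH replicate 3. The log2 fold change was −0.44 ± 0.55 (SE; adjusted P = 0.811; exact permutation P = 0.600) and turned to 0.11 (adjusted P = 0.947) without that library. Among the genes most like Fst were Narf (r = 0.992) and Eif3j1 (r = 0.979), both also at their highest in VEH replicate 3. Fstl3 was measured at 0.349, 0.558, 0.864 and 0.460 CPM in VEH and at 0.688, 0.815, 1.55 and 1.12 CPM in BAY. These values stand on 3 to 12 reads per library and reach down to the level of 3 reads. Its mean was 0.558 CPM in VEH and 1.04 CPM in BAY, a log2 fold change of 0.91 ± 0.59 (SE; adjusted P = 0.641; exact permutation P = 0.0857) that this depth could not tell from the spread between mice. Exons of Prss57, for which no muscle value was used here, lie opposite 47.1% of the exon bases of Fstl3.

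Of the type II receptors, Acvr2a was measured at 15.5, 16.8, 27.1 and 13.1 CPM in VEH and at 13.3, 12.2, 15.2 and 7.01 CPM in BAY. VEH replicate 3 was the highest and BAY replicate 4 the lowest, and BAY replicates 1 and 3 lay within the VEH range. The log2 fold change was −0.61 ± 0.26 (SE; unadjusted P = 0.0332, adjusted P = 0.474; exact permutation P = 0.0857). Without VEH replicate 3 the log2 fold change was −0.39 (unadjusted P = 0.121, adjusted P = 0.615), and without BAY replicate 4 it was −0.37 (unadjusted P = 0.133, adjusted P = 0.662). The unadjusted value was also just over the threshold without VEH replicate 2, at 0.0537 (log2 fold change −0.62), or BAY replicate 2, at 0.0542 (−0.64). Exons of Orc4 lie opposite 30.5% of the exon bases of Acvr2a. Orc4 was measured at 6.44 CPM with a log2 fold change of −0.76 (unadjusted P = 0.0623 with limma). The study names a stranded library kit, but whether the counting used strand is not given in the sources used here. Recovered muscle reads of Acvr2a lay up to 0.492 from a whole number. Those of Fstl3 lay up to 0.148 and those of Smad3, the next highest, up to 0.00664. The part that reads shared with Orc4 play was not tested. Acvr2b, the receptor with the higher affinity for myostatin, was measured at 9.89, 14.8, 13.8 and 12.2 CPM in VEH and at 17.8, 15.2, 12.9 and 15.1 CPM in BAY. The difference, 0.27 ± 0.17 on the log2 scale (SE; adjusted P = 0.615; exact permutation P = 0.143), stayed within the spread between mice.

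Of the type I receptors, Tgfbr1 was measured at 13.0, 15.8, 19.9 and 10.7 CPM in VEH and at 9.63, 11.6, 12.1 and 9.96 CPM in BAY. The 2 highest BAY libraries lay between VEH replicates 4 and 1. The log2 fold change was −0.43 ± 0.19 (SE; unadjusted P = 0.0428, adjusted P = 0.498; exact permutation P = 0.114). Without VEH replicate 3 it was −0.27 (unadjusted P = 0.129, adjusted P = 0.622). Unadjusted values were 0.0978 without VEH replicate 2 (log2 fold change −0.38), 0.107 without BAY replicate 1 (−0.37), 0.0553 without BAY replicate 2 (−0.46) and 0.0931 without BAY replicate 4 (−0.39). Acvr1b was the most evenly measured receptor in BAY-treated mice. It was measured at 33.8, 43.6, 33.1 and 26.6 CPM in VEH and at 36.5, 35.9, 35.6 and 34.5 CPM in BAY, with a log2 fold change of 0.08 (95% confidence interval −0.23 to 0.39). With the 2 receptors that were lower, the part that VEH replicate 3 and its adipocyte and fibroblast transcripts play was not tested beyond leaving the library out.

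Smad7 was measured at 15.4, 16.6, 15.5 and 16.8 CPM in VEH and at 26.7, 18.9, 21.4 and 24.1 CPM in BAY. Its 4 BAY libraries all lay above the highest VEH library, and the VEH libraries were close together. The means were 16.1 ± 0.731 CPM and 22.8 ± 3.36 CPM (SD, n = 4). With limma, the log2 fold change was 0.49 ± 0.14 (SE; unadjusted P = 0.00348, adjusted P = 0.311; exact permutation P = 0.0286). It was 0.48 without VEH replicate 3, and the unadjusted P value stayed under 0.05 in all 9 other settings and with each of the 8 libraries left out. Smad3, which carries the signal that SMAD7 inhibits, was measured at 50.2, 59.3, 37.5 and 54.0 CPM in VEH and at 58.5, 53.5, 53.9 and 58.3 CPM in BAY. It had a log2 fold change of 0.18 (95% confidence interval −0.13 to 0.48, adjusted P = 0.691).

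**Figure D2:**
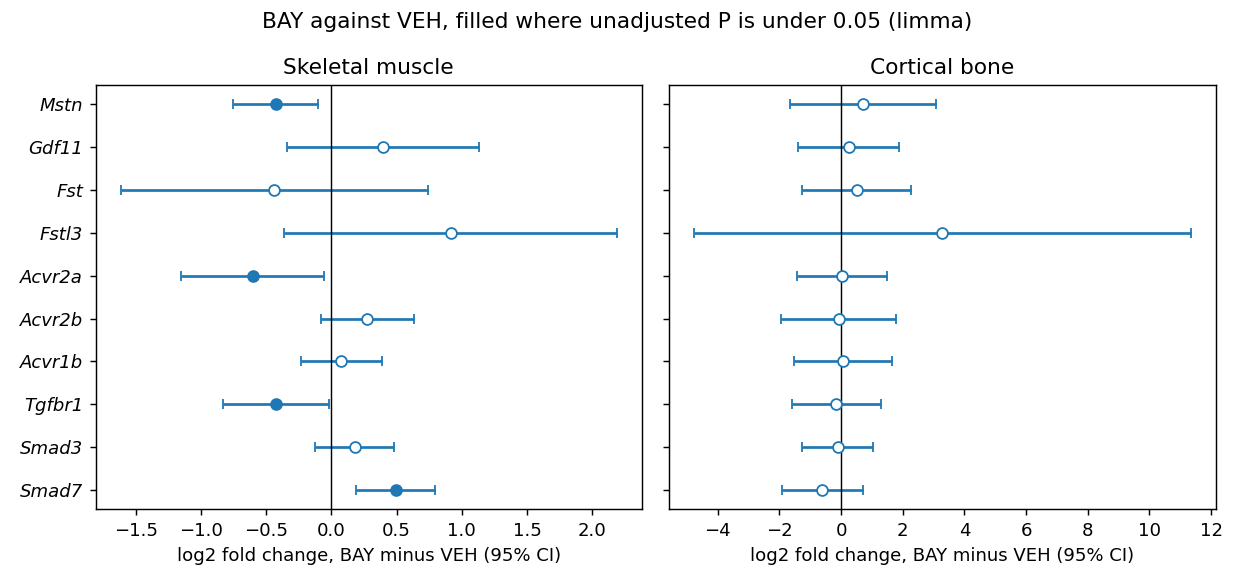
Log2 fold change (BAY minus VEH) of each gene with its 95% confidence interval from limma, in skeletal muscle (left) and cortical bone (right), with points filled where the unadjusted P value is under 0.05. The filled points are Mstn, Acvr2a, Tgfbr1 and Smad7 in muscle, none is filled in bone, and the bone axis spans a wider range.

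Per kilobase of exon, the mean level over the 8 muscle libraries was highest for Smad3 at 9.17 CPM per kb. Mstn followed at 7.79 and Acvr1b at 7.35 CPM per kb. Smad3 was above Mstn in 6 of 8 libraries. Mstn was above Acvr1b in 4 of 8, all of them VEH libraries, and below it in every BAY library. The order of Smad3, Mstn and Acvr1b differed between the groups. In VEH, Mstn came first at 8.89, with Smad3 at 8.67 and Acvr1b at 7.21 CPM per kb, and in BAY it came after both, at 6.69 against 9.68 and 7.49 CPM per kb. Acvr1b was above Smad7, at 4.09 CPM per kb, in all 8 libraries. Gdf11 at 2.37, Tgfbr1 at 1.94, Acvr2a at 1.49 and Acvr2b at 1.25 CPM per kb formed the middle of the order. Of these, Tgfbr1 lay above Acvr2a in all 8 libraries, and Gdf11 over Tgfbr1 and Acvr2a over Acvr2b held in 5 of 8 each. Fst at 0.458 and Fstl3 at 0.326 CPM per kb were the lowest. Mean levels of Mstn and Fst fell at percentiles 84.7 and 48.3 of all muscle genes by CPM.

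Other genes of the wider TGF-beta family were taken from 5 lists by role, 72 genes in all, of which 66 were in the muscle table. The unadjusted P value was under 0.05 for 12 of them, or 18.2%, against the 9.79% of all genes given above, with 10 higher and 2 lower. By role, they were 1 of 13 ligands, 3 of 9 receptors, 4 of 18 binding and processing proteins, 1 of 14 signal transducers and 3 of 12 response genes. The adjusted P value was at least 0.294 for each with limma. The median log2 fold change of the 66 genes was 0.15. Without VEH replicate 3 the count was 16, and it lay between 10 and 16 over all libraries left out.

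The other inhibitory SMAD gene, Smad6, which acts mainly on the BMP branch, was measured at 3.03, 9.06, 7.02 and 6.80 CPM in VEH and at 14.2, 12.2, 11.9 and 11.6 CPM in BAY. All 4 BAY libraries lay above the VEH libraries, with a log2 fold change of 1.05 ± 0.28 (SE, unadjusted P = 0.00208, adjusted P = 0.295). Bmp6, a ligand of that branch, was measured at 9.54, 13.5, 14.3 and 14.4 CPM in VEH and at 16.6, 20.1, 22.2 and 22.2 CPM in BAY. The BAY libraries again lay higher, with a log2 fold change of 0.66 ± 0.17 (SE, unadjusted P = 0.00164, adjusted P = 0.294). Id1, a standard BMP target gene, went from a mean of 3.96 ± 0.491 CPM to 6.16 ± 0.315 CPM (log2 fold change 0.64, unadjusted P = 0.00616, adjusted P = 0.334). Eng, which encodes the endothelial co-receptor endoglin, went from 22.7 ± 2.31 CPM to 31.6 ± 5.83 CPM (log2 fold change 0.46, unadjusted P = 0.00832, adjusted P = 0.351). Neither gene overlapped between the groups. Not all genes of the BMP branch were higher. The receptor gene Bmpr1b was lower, with a log2 fold change of −0.61 (limma, unadjusted P = 0.0440, adjusted P = 0.499). The ligand genes Bmp5 and Bmp7 had log2 fold changes of −0.56 and −0.76, and Bmp2 and Bmp4 had 0.20 and 0.15. Each had an unadjusted limma P value over 0.05. The BMP antagonist gene Chrd was higher without overlap (log2 fold change 0.75, unadjusted P = 0.0296 with limma).

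Myostatin is also held back by WFIKKN1, a secreted protein that binds it, and its secretion has been tied to titin-cap, the product of Tcap. Wfikkn1 was measured at 1.05, 0.976, 0.864 and 0.835 CPM in VEH and at 2.89, 1.96, 2.06 and 2.10 CPM in BAY, from 7 to 21 reads. Its log2 fold change of 1.26 ± 0.38 (SE, unadjusted P = 0.00512, adjusted P = 0.319) came with no overlap between the groups. Tcap was measured at 592, 742, 654 and 654 CPM in VEH and at 896, 890, 894 and 1268 CPM in BAY, a log2 fold change of 0.57 ± 0.17 (SE, unadjusted P = 0.00539, adjusted P = 0.324). All 4 BAY libraries lay above the VEH libraries. Of the 66 genes, 10 did not overlap between the groups, and all 10 were higher in BAY, where 4.20% of all muscle genes were higher without overlap. Smad6, Wfikkn1 and Postn, the last singled out after its value was seen, were past both an unadjusted P value of 0.05 and 2-fold. Postn, a fibroblast matrix gene, had a log2 fold change of −1.86 with its highest value, 8.75 CPM, in VEH replicate 3.

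**Figure D3:**
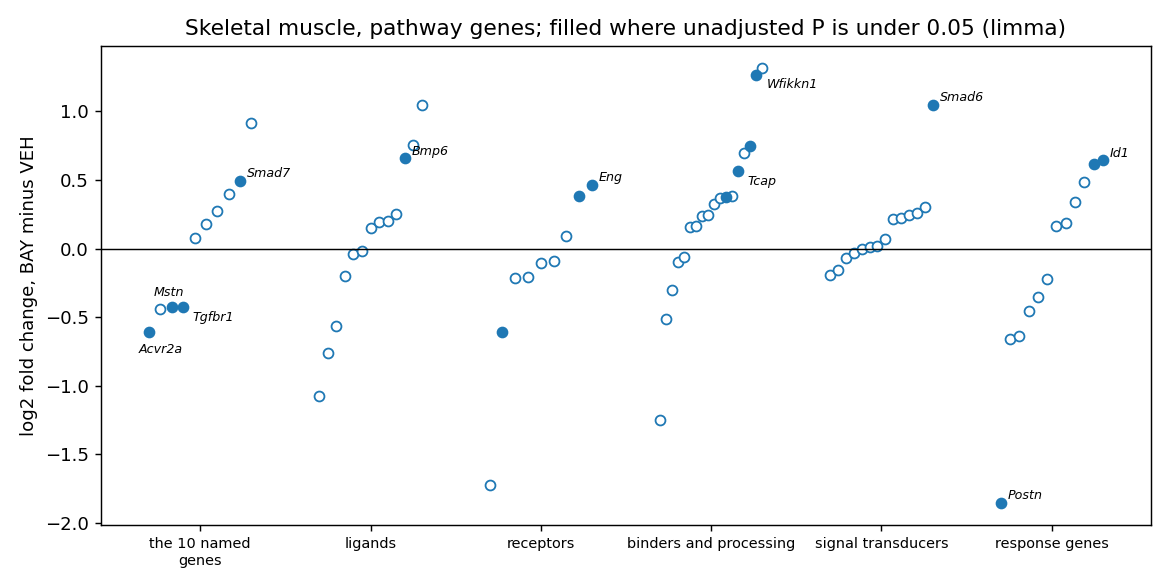
Log2 fold change (BAY minus VEH) in skeletal muscle of the 10 genes and of 66 other genes of the family by role, ordered by value within each role, with filled points where the unadjusted P value from limma is under 0.05. Of the other genes, 10 filled points lie above 0 and 2 lie below, and Smad6 and Wfikkn1 lie above 1.

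Markers of other cell types were read beside these values. The 5 endothelial markers summed to 165 to 193 CPM in VEH and to 172 to 215 CPM in BAY, which overlapped. One of them, Cdh5, ranged from 66.1 to 71.4 CPM in VEH and from 76.0 to 102 CPM in BAY (log2 fold change 0.31, unadjusted P = 0.0234 with limma), while Kdr had a log2 fold change of −0.24 (unadjusted P = 0.0717). The 4 satellite cell markers Pax7, Myf5, Cdh15 and Calcr summed to 13.4 to 17.6 CPM in VEH and to 18.0 to 23.0 CPM in BAY without overlap. Most of that sum was Cdh15 (log2 fold change 0.39, unadjusted P = 0.0194), and Calcr was listed at 0 in all 4 VEH libraries. Of the 7 tendon and fibroblast markers, Scx ranged from 2.98 to 3.49 CPM in VEH and from 4.13 to 6.17 CPM in BAY (log2 fold change 0.63, unadjusted P = 0.0171), and Dpt from 2.79 to 12.4 CPM in VEH and from 1.65 to 4.39 CPM in BAY (−1.05, unadjusted P = 0.0369). Of the 7 adipocyte markers, Plin1 ranged from 1.31 to 37.9 CPM in VEH and from 0.275 to 1.82 CPM in BAY (−2.13, unadjusted P = 0.0368). The part that satellite cell, endothelial, fibroblast or adipocyte RNA plays in the values of Smad7, Smad6, Bmp6, Id1 and Eng was not tested.

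In cortical bone, 0 of the 10 genes passed an unadjusted P value of 0.05 with limma, where 0.640% of all genes did, and the smallest was 0.339, for Smad7. None of the 10 was without overlap between the groups, against 0.406% of all genes. The smallest adjusted P value of any bone gene was 0.887 with limma (0.00% of all genes under 0.05) and 0.731 with voom, while 31 bone genes passed an adjusted 0.05 without a trend and 1 passed with log2(CPM + 1). The median log2 fold change was 0.04 for the 10 genes and 0.84 for all bone genes. Without VEH replicate 1 these medians were −0.31 and −0.088, so that library set most of the gap between them. With each library centred on its median, 9 of the 10 genes had a negative log2 fold change, as with quantile normalization, in place of 4 as deposited.

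The bone libraries differed in what they held, and these values stand beside every bone result. The median level of 1355 olfactory receptor genes, which bone is not known to use, was 0.0303 CPM per kb of exon in VEH replicate 1. It was 6.86, 1.22 and 5.36 CPM per kb in VEH replicates 2 to 4, and BAY replicates 1 to 4 had 2.49, 2.30, 2.34 and 8.50 CPM per kb. The 12 muscle fiber markers summed to 80371 and 88905 CPM in BAY replicates 1 and 2 and to 25848 CPM in VEH replicate 1. In the other 5 libraries they summed to 361 to 3861 CPM. The 14 osteoblast and osteocyte markers were all detected, and their sum was lowest in VEH replicate 2 (1596 CPM) and highest in VEH replicate 3 (31663 CPM). The libraries of VEH replicates 3 and 4 and of BAY replicate 3 had the highest sums, at 23228 CPM or more, and the other 5 had at most 7522 CPM. The part that these differences play in the bone values was not tested beyond the values without each library.

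**Figure D4:**
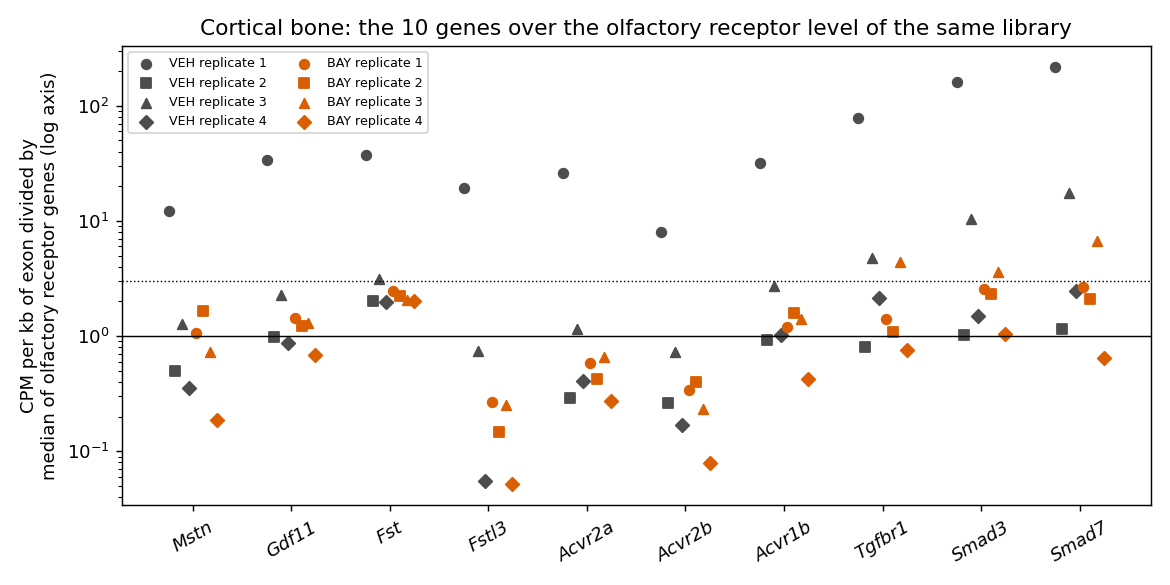
Level of each gene in CPM per kb of exon divided by the median of the olfactory receptor genes of the same cortical bone library, on a log axis, with VEH in grey, BAY in orange and a symbol per replicate. VEH replicate 1 lies above all other libraries for every gene, the solid line marks 1, the dotted line marks 3, and Fstl3 in VEH replicate 2, listed at 0, cannot be drawn.

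Set against that olfactory receptor level, most of the 10 genes stood out of it in a single bone library. In VEH replicate 1 the 10 genes were at 8.05 times it, for Acvr2b, to 218 times it, for Smad7. A single read was worth 0.144 CPM in that library, whose olfactory receptor median was the lowest, so these folds are only approximate. Mstn, Gdf11, Fstl3, Acvr2a, Acvr2b and Acvr1b were above 3 times that level in VEH replicate 1 and in no other library. Tgfbr1, Smad3 and Smad7 were above it in 3 libraries, VEH replicates 1 and 3 and BAY replicate 3. Smad7 reached 17.4 times it in VEH replicate 3 and 6.73 times it in BAY replicate 3, both with high sums of osteoblast and osteocyte markers, and 2.46 times it in VEH replicate 4, whose sum was also high. Fst was above it in VEH replicates 1 and 3, at 37.2 and 3.13 times, and at 1.99 to 2.47 times in the other 6.

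Among the ligands, Mstn was measured in bone at 1.01, 9.21, 4.25 and 5.10 CPM in VEH and at 7.15, 10.3, 4.58 and 4.30 CPM in BAY, from 4 to 25 reads. Its difference of 0.71 ± 1.1 on the log2 scale (SE; adjusted P = 0.887; exact permutation P = 0.429) lay inside the spread between mice. The library of BAY replicate 2, with the most muscle fiber transcripts, had the highest Mstn value, 43.0% of the mean of the VEH muscle libraries, while its fiber marker sum was 29.2% of theirs. In VEH replicate 2 the same shares were 38.3% for Mstn and 0.564% for the markers, and in VEH replicate 1 they were 4.18% and 8.48%. In the 7 libraries other than VEH replicate 1, Mstn stood at 0.187 to 1.66 times the olfactory receptor level. Without VEH replicate 1 its log2 fold change was 0.081. Gdf11 was measured at 4.32, 28.5, 11.7 and 19.7 CPM in VEH and at 15.2, 12.0, 12.7 and 24.7 CPM in BAY (log2 fold change 0.25 ± 0.76, SE, adjusted P = 0.948).

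Fst was the antagonist with the higher bone level, at 5.32, 65.4, 18.1 and 50.2 CPM in VEH and 29.1, 24.0, 22.9 and 80.6 CPM in BAY. The highest values were those of VEH replicates 2 and 4 and BAY replicate 4, the 3 libraries with the highest olfactory receptor levels. On the log2 scale the change was 0.51 ± 0.82 (SE, adjusted P = 0.887) and −0.21 without VEH replicate 1. Fstl3 was listed at 0 in VEH replicate 2 and reached at most 10 reads elsewhere, at 0.728 to 2.24 CPM in the other VEH libraries and 0.827 to 1.63 CPM in BAY. Its log2 fold change of 3.29 (adjusted P = 0.887) rested on that library and was −0.14 without it. Prss57, whose exons overlap those of Fstl3 on the opposite strand, averaged 10.5 CPM in bone.

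The receptors overlapped between the groups in bone. Acvr2a ranged from 7.91 to 22.1 CPM in VEH and from 9.93 to 23.6 CPM in BAY, with a log2 fold change of 0.03 (95% confidence interval −1.43 to 1.48). Acvr2b ranged from 2.73 to 20.3 CPM in VEH and from 6.11 to 10.3 CPM in BAY, with −0.08 (−1.96 to 1.79). For Acvr1b the ranges were 4.60 to 30.4 CPM and 14.3 to 17.4 CPM, with 0.05 (−1.54 to 1.64). Tgfbr1 ranged from 15.8 to 76.4 CPM in VEH and from 16.5 to 68.7 CPM in BAY, with −0.15 (−1.60 to 1.30). Each interval holds changes of more than 2-fold in both directions, so changes of the size seen in muscle were not detectable here. The lowest VEH value of each of the 4 receptors was that of VEH replicate 1. That library had the most reads counted on genes and the lowest olfactory receptor level.

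Smad7 was measured in bone at 31.4, 37.7, 101 and 62.6 CPM in VEH and at 31.3, 23.2, 74.9 and 25.8 CPM in BAY. The log2 fold change of −0.60 ± 0.61 (SE; adjusted P = 0.887; exact permutation P = 0.229) was negative in all 9 other settings and with each library left out, from −1.46 to −0.51 over the settings and from −0.98 to −0.29 over the libraries left out, with no P value under 0.05. A difference between the tissues was not tested, since the tables were normalized separately. Smad3 was measured at 28.3, 40.5, 73.7 and 46.6 CPM in VEH and at 36.7, 31.0, 48.9 and 51.6 CPM in BAY (log2 fold change −0.11 ± 0.53, SE, adjusted P = 0.990). For both genes the highest VEH library was replicate 3, which had the most osteoblast and osteocyte transcripts.

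**Figure D5:**
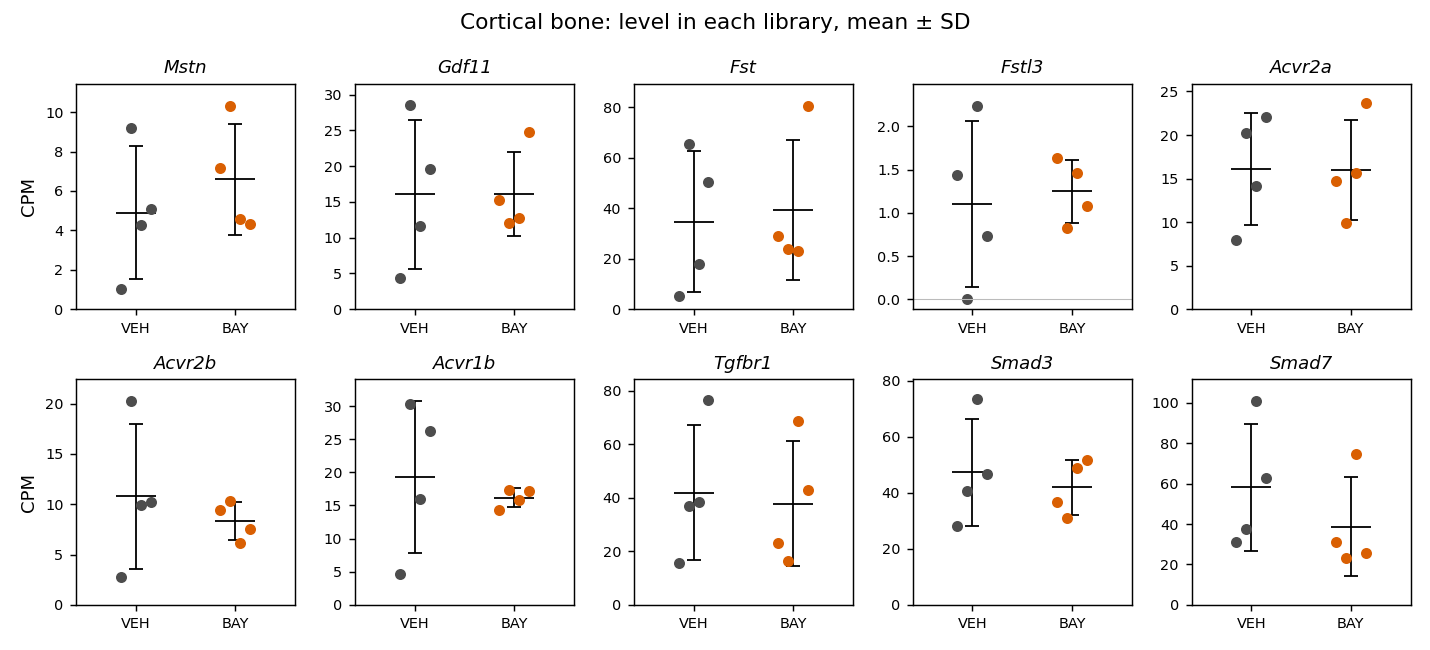
CPM of each of the 10 genes in the 4 VEH (grey) and 4 BAY (orange) cortical bone libraries, with the mean and SD of each group as bars and each axis starting at or just below 0. All 10 genes overlap between the groups, and Fstl3 is listed at 0 in 1 VEH library.

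Per kilobase of exon, the order in bone began with Smad7 at 10.2 CPM per kb. Fst at 7.83, Smad3 at 7.71 and Tgfbr1 at 6.03 CPM per kb came next, and neighbors in that order held in 3 to 6 of the 8 libraries. Smad7 came first in VEH, at 12.3 CPM per kb, and Fst, at 8.30 CPM per kb, just ahead of Smad7, at 8.17 CPM per kb, in BAY. Gdf11 at 3.81, Acvr1b at 3.73, Mstn at 2.12 and Acvr2a at 1.59 CPM per kb were lower. Acvr2a was above Acvr2b, at 0.854 CPM per kb, in all 8 libraries, and Fstl3 was lowest at 0.478 CPM per kb. Side by side, Fst was among the lowest of the 10 genes in muscle and among the highest in bone, in libraries where it mostly lay close to the olfactory receptor level.

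All 72 other genes of the family were in the bone table, and 0 of them passed an unadjusted P value of 0.05 with limma, against the 0.640% of all genes. Their median log2 fold change was −0.03. The BMP antagonist gene Nog, singled out after its values were seen, was the only one of the 72 without overlap between the groups, 1.39% of them, where 0.406% of all bone genes did not overlap. It had a mean of 5.29 ± 0.977 CPM in VEH and 3.03 ± 1.08 CPM in BAY (SD, n = 4) from 4 to 40 reads, and a limma P value of 0.452. Outside VEH replicate 1 it lay at 0.298 to 2.22 times the olfactory receptor level.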

How the data were processed

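RNA-seq libraries of tibialis anterior muscle and cortical bone (4 VEH, 4 BAY each) were used. Reads had been trimmed by the authors, mapped to mm39 with STAR 2.7.8a and quantified on Ensembl genes in Partek Flow by expectation maximization. The authors scaled them to CPM and deposited log2 values of CPM plus an offset, 0.0001 in bone and 0.0004 in muscle. Recovered reads came out whole, to within 0.02, for 81.0% to 88.3% of values of at most 50 reads. The members and lists were chosen with earlier results of these data known. BAY was compared with VEH per tissue by limma 3.58.1 in R 4.3.3 (lmFit, eBayes with a trend, no covariate or filter, two-sided), and by exact permutation over 70 splits for single genes. The scripts were tested on simulated data. Alternatives were 2 larger offsets (0.1 and 1 CPM), median centring, dropping genes averaging under 1 CPM, no trend, quantile normalization, array weights, voom on recovered reads, the replicate block and each library left out. All 10 genes are described, with at most 6 other family genes per tissue, those with the smallest unadjusted P values under 0.05, and for Mstn and Fst the 3 most correlated muscle genes. Postn, Bmpr1b, Chrd, Bmp2, Bmp4, Bmp5 and Bmp7 in muscle and Nog in bone fall outside this rule. All were named after their values were seen. A gene that this rule takes is not reported here. Exon lengths came from GENCODE M39 and covered 99.4% of muscle and 99.1% of bone genes. The study sequenced 1 tibialis anterior per mouse and gives n = 4 mice per group, so P values measure the spread between mice. No label names the mice. Replicate numbers were checked for pairing and did not pair the libraries.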

Additional observations from a re-analysis of the deposited data

Results flagged for a closer look

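In skeletal muscle, the Mstn value of BAY replicate 4, 13.3 CPM, lay far from the other BAY libraries at 19.1 to 20.1 CPM. On the log2 scale, its gap to the nearest library was 0.879 of the range of the group, above Dixon's 95% critical value for 4 samples. In cortical bone, the Fstl3 value of VEH replicate 2, listed at 0, was at 0.888 of the group's range from its nearest neighbor on the log2 scale. The log2 value of a 0 is set by the offset of 0.0001 CPM, so that gap says little beyond the 0 itself. Of 40 groups examined, these 2 were past the limit, and chance gives about 1 in 20.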

How the results depend on the processing

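In skeletal muscle, the count of the 10 genes past an unadjusted P value of 0.05 was 4 as reported, 2 with array weights, and 2 to 4 with 1 library left out, and the genes lost were Acvr2a and Tgfbr1. Mstn and Smad7 stayed past it throughout. Without a trend, Acvr2a (unadjusted P = 0.106) and Tgfbr1 (unadjusted P = 0.0925) were lost and Fstl3 (unadjusted P = 0.0411) was gained. Fstl3 fell out under the filter at a mean of 1 CPM. Leaving out 1 library gave 0.095 to 0.76 for Gdf11, −0.81 to 0.11 for Fst and −0.038 to 0.20 for Acvr1b. In cortical bone, array weights gave 1 of the 10 genes past that P value and past 2-fold (Fstl3, 8.43), in a fit whose weights stopped before they converged. The count of other family genes, 0 as reported, was 1 with log2(CPM + 1), with median centring, with quantile normalization and with the replicate block, 2 with array weights, and 0 to 2 with 1 library left out. Log2 fold changes that turned in sign in bone were, with median centring, Mstn −0.14, Gdf11 −0.60, Fst −0.34, Acvr2a −0.82 and Acvr1b −0.80, and with quantile normalization Mstn −0.44, Gdf11 −0.30, Fstl3 −0.65, Acvr2a −0.42 and Acvr1b −0.52. With array weights they were Gdf11 −0.51, Fst −0.51, Acvr2a −0.37 and Acvr1b −0.59, and with voom Acvr2b 0.42 and Tgfbr1 0.042. With 1 library left out, the ranges in bone were 0.081 to 1.14 for Mstn, −0.27 to 0.63 for Gdf11, −0.21 to 0.99 for Fst, −0.14 to 4.68 for Fstl3, −0.28 to 0.23 for Acvr2a and −0.64 to 0.33 for Acvr2b. They were −0.53 to 0.37 for Acvr1b, −0.55 to 0.21 for Tgfbr1 and −0.33 to 0.13 for Smad3. Over the other settings, without leaving out a library, the bone values ran from −1.13 to 0.42 for Acvr2b, from −1.0 to 0.042 for Tgfbr1, from −0.97 to −0.075 for Smad3 and from −1.46 to −0.51 for Smad7. The cause of these changes was not tested. Over all genes, the limma fit with a trend used here put 249 bone genes past P 0.05 and 2-fold. The other settings put 82, with the filter, to 1433, with voom. In muscle this fit put 510 genes past both, and the other settings 52, with log2(CPM + 1), to 700, with voom. The differential analysis of the study itself used limma with voom.

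The replicate numbers do not pair the libraries, since correlations of same-numbered libraries ran from −0.0885 to 0.0075 in muscle and from −0.109 to 0.188 in bone. With the replicate block, 4 of the 10 genes were past P 0.05 in muscle and 0 in bone, and the other family genes went from 12 to 10 in muscle. Fstl3 stood on at most 12 reads in muscle and 10 in bone.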
